A study of Mus musculus with 313 samples.

Results

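Runx3 and Cbfb encode the parts of 1 transcription factor complex, and both are described here in single lymphoid precursors of the mouse fetal liver. They are 2 of the 100 assays of a quantitative RT-PCR panel and were chosen by name, with their values in these cells already known. Their shares of detected cells, their levels, their relation in single cells and the low Cbfb of one group were all part of that choice, so these values are given as a description without a test. The 313 cells came from pooled livers of fetuses at embryonic day 15, and no source used here gives the mouse strain. All had been sorted as lineage-negative cells that carried integrin α4β7 and the α chain of the interleukin-7 receptor. The lymphoid tissue inducer precursors (LTiP) lacked PLZF and carried CXCR5, the common innate lymphoid cell precursors (ILCP) carried PLZF, and the α4β7+ lymphoid precursors (aLP) carried neither. Each cell name holds the number 2 or 3, taken here as the sort, and cells of 1 group and 1 sort formed a pool. After 1 aLP cell with few signals was left out, the pools were LTiP of sort 3 (14 cells), ILCP of sorts 2 and 3 (62 and 90 cells) and aLP of sorts 2 and 3 (54 and 92 cells).

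Runx proteins bind DNA through a Runt domain, and CBFβ, the product of Cbfb, binds no DNA itself but raises the affinity of its Runx partner and protects it from degradation. CBFβ serves every Runx protein, whereas Runx3 has a restricted expression in lymphocytes and sensory neurons. In the mouse, Runx3 is needed for the CD8 T cell programme, where it silences Cd4, and for the development or survival of natural killer cells, ILC1 and ILC3. Runx proteins end in a short peptide that recruits Groucho/TLE co-repressors, several of which are on the panel.

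The Runx3 gene lies on the forward strand of chromosome 4 (4:135120645-135177990, GRCm38.p6) and Cbfb on the forward strand of chromosome 8 (8:105170674-105217989). RefSeq lists 2 starts for Runx3, a distal and a proximal one, and 1 for Cbfb in the table used here. The panel has 1 Runx3 assay, and which starts it reads is not stated in the sources used. The 250 bases before each start are shown because Runx complexes bind the motif ACCACA, set in capitals. Both strands were searched, and a match on the other strand would read TGTGGT here.

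Runx3 distal, chr4:135120395-135120644: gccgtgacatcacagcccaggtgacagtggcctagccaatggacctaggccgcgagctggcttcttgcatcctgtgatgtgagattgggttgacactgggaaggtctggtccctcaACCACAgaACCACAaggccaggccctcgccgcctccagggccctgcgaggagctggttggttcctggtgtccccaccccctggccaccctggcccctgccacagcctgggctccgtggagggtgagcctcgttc
Runx3 proximal, chr4:135152295-135152544: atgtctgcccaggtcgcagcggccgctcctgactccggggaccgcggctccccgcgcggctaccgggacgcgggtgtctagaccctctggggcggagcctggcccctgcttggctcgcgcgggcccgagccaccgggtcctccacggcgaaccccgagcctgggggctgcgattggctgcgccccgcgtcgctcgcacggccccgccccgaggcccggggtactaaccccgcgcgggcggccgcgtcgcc
Cbfb, chr8:105170424-105170673: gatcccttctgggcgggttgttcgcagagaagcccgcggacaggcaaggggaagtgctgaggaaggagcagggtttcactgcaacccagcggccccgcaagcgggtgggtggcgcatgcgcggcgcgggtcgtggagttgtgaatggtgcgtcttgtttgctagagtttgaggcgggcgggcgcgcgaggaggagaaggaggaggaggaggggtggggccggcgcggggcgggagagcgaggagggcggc

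The distal Runx3 window held the motif 2 times, beginning at -134 and -126 from the start, and the other windows did not hold these letters. Of 32851 windows of the same length over all genes of the table, 14% held the motif at least once and 1.27% at least 2 times. A match describes the letters of the window and is not a measured binding site.

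The measured quantity is the threshold cycle, Ct, of the PCR: the more cDNA of a gene a cell held, the lower its Ct, and 1 cycle stands for about a doubling. Detection here means a Ct below 24. The level is 24 minus the Ct, in cycles, and is 0 without detection. Assays differ in efficiency, so levels were compared between cells and not between genes. The depth of the cells differed between the groups. The median number of detected assays per cell was 34.5 in LTiP, 41 in each ILCP pool, 36.5 in aLP of sort 2 and 28 in aLP of sort 3. The mean Ct of the housekeeping genes Actb, Gapdh and Hprt had a median over cells of 15.4 in LTiP, 13.6 and 14.2 in the ILCP pools and 13.9 and 14.9 in the aLP pools. The aLP pool of sort 2 included 7 cells with a housekeeping mean of 18 or later, against 0 or 1 such cells in each other pool. The gate genes followed their labels in part: Zbtb16, the gene of PLZF, gave a signal in 50.0% of the PLZF-negative LTiP cells, 58 ILCP cells of sort 2 and 87 of sort 3, and 11 aLP cells of sort 2 and 3 of sort 3. Cxcr5 was detected in 85.7% of LTiP cells, in 38.7% and 45.6% of ILCP cells and, although aLP were sorted without CXCR5, in 25.9% of aLP cells of sort 2 and 7.61% of sort 3. The αIIb integrin gene Itga2b is a marker of megakaryocytes and early progenitors. It was seen in 0 LTiP cells, in 14 and 31 cells of the ILCP pools and in 1 cell of each aLP pool. The T lineage gene Lat was likewise found more in ILCP (26 and 34 cells, 41.9% and 37.8%) than in aLP (8 and 2). Its share was highest in LTiP, with 9 cells (64.3%). Bcl11b, another T lineage gene, was found in 22 and 29 ILCP cells (35.5% and 32.2%) but in 0 aLP and 0 LTiP cells. Irf8, a myeloid and dendritic gene, went the other way between ILCP and aLP. It was found in 25 and 30 ILCP cells (40.3% and 33.3%), 40 and 73 aLP cells (74.1% and 79.3%) and 8 LTiP cells (57.1%). So did the B lineage gene Bcl11a, with 3 and 2 ILCP, 11 and 12 aLP and 2 LTiP cells. The part of depth and of such cells in the results was not tested.

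Both genes were broadly transcribed in these precursors. Of the 312 cells kept, 50 lacked Runx3 and 27 lacked Cbfb. Detection was close to all or none. Of the 50 cells without Runx3, 49 gave no Ct at all and 1 gave a Ct at or above 24, and of the 27 cells without Cbfb, 25 gave no Ct and 2 a late one. Signals with a Ct of 20 or later, near the limit, were seen in 7 cells for Runx3 and 12 for Cbfb, most of them aLP cells (6 and 9).

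Runx3 was detected in 12 of 14 LTiP cells (85.7%, exact 95% binomial interval 57.2 to 98.2). In ILCP it was detected in 56 of 62 cells of sort 2 (90.3%, 80.1 to 96.4) and in 84 of 90 cells of sort 3 (93.3%, 86.1 to 97.5). In aLP it was detected in 47 of 54 cells of sort 2 (87.0%, 75.1 to 94.6) and in 63 of 92 cells of sort 3 (68.5%, 57.96 to 77.8). The aLP pool of sort 3 was thus the low one: its interval lay below those of both ILCP pools and overlapped those of LTiP and of aLP of sort 2. The other 4 intervals overlapped one another. Intervals cover counting error only.

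Cbfb was detected in 10 of 14 LTiP cells (71.4%, 41.9 to 91.6), the lowest share of the 5 pools. It was detected in 59 of 62 ILCP cells of sort 2 (95.2%, 86.5 to 98.99) and 83 of 90 of sort 3 (92.2%, 84.6 to 96.8). In aLP it was detected in 50 of 54 cells of sort 2 (92.6%, 82.1 to 97.9) and 83 of 92 of sort 3 (90.2%, 82.2 to 95.4). All 4 ILCP and aLP pools lay within 5 percentage points, and the LTiP interval overlapped that of each of them.

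**Figure D1:**
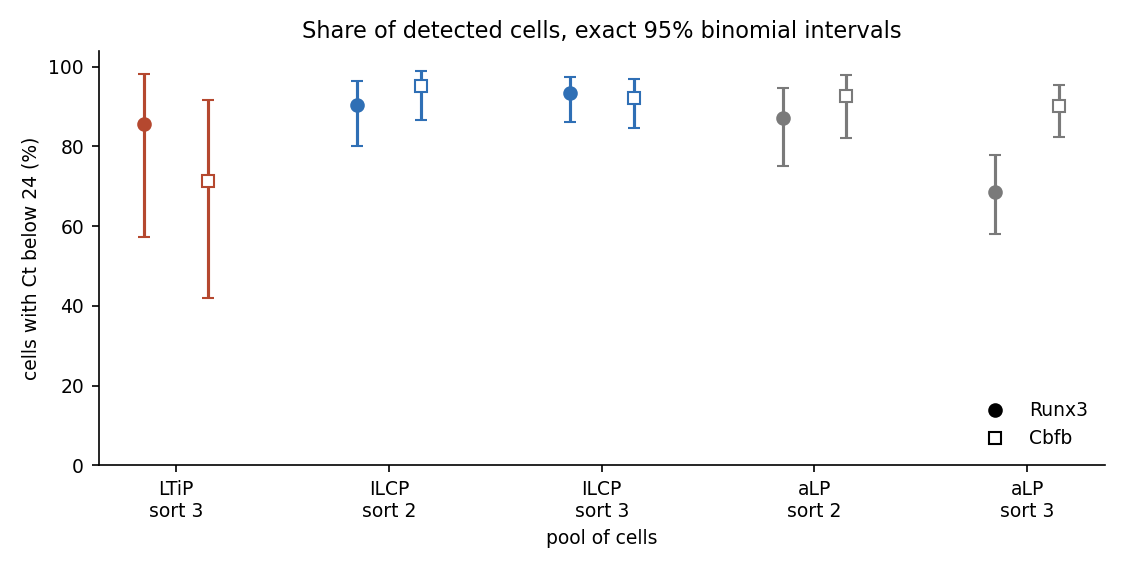
Share of cells with a Ct below 24 for Runx3 (filled circles) and Cbfb (open squares) in each pool, in percent, with exact 95% binomial intervals as bars. Runx3 is lowest in aLP of sort 3 (68.5%) and Cbfb lowest in LTiP (71.4%).

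In the cells where Runx3 was detected, its level ran from 0.29 to 8.53 cycles with a median of 6.72 in LTiP. In ILCP it ran from 4.92 to 9.82 (median 7.44) in sort 2 and from 4.36 to 10.1 (median 7.85) in sort 3. In aLP it ran from 1.40 to 9.51 (median 6.85) in sort 2 and from 3.97 to 9.76 (median 6.48) in sort 3. The ranges of all pools overlapped widely, and both ILCP medians stood above the other 3. The mean level of detected cells was 6.24 ± 2.1 in LTiP, 7.28 ± 1.30 and 7.55 ± 1.37 in ILCP and 6.58 ± 2.04 and 6.51 ± 1.26 in aLP (SD over detected cells of a pool). The gap between the ILCP and aLP means, 0.71 cycles in sort 2 and 1.04 in sort 3, was smaller than the spread among the cells of either pool.

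For Cbfb the level of detected cells ran from 1.78 to 7.81 cycles with a median of 6.27 in LTiP. In ILCP it ran from 2.25 to 10.3 (median 7.85) in sort 2 and from 2.86 to 9.57 (median 7.92) in sort 3. In aLP it ran from 0.39 to 9.60 (median 7.54) in sort 2 and from 3.64 to 8.70 (median 7.33) in sort 3. The LTiP median was the lowest of the 5, and the highest LTiP cell lay below both ILCP medians. The mean level was 6.13 ± 1.75 in LTiP, 7.65 ± 1.29 and 7.62 ± 1.24 in ILCP and 6.63 ± 2.58 and 7.15 ± 1.06 in aLP.

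**Figure D2:**
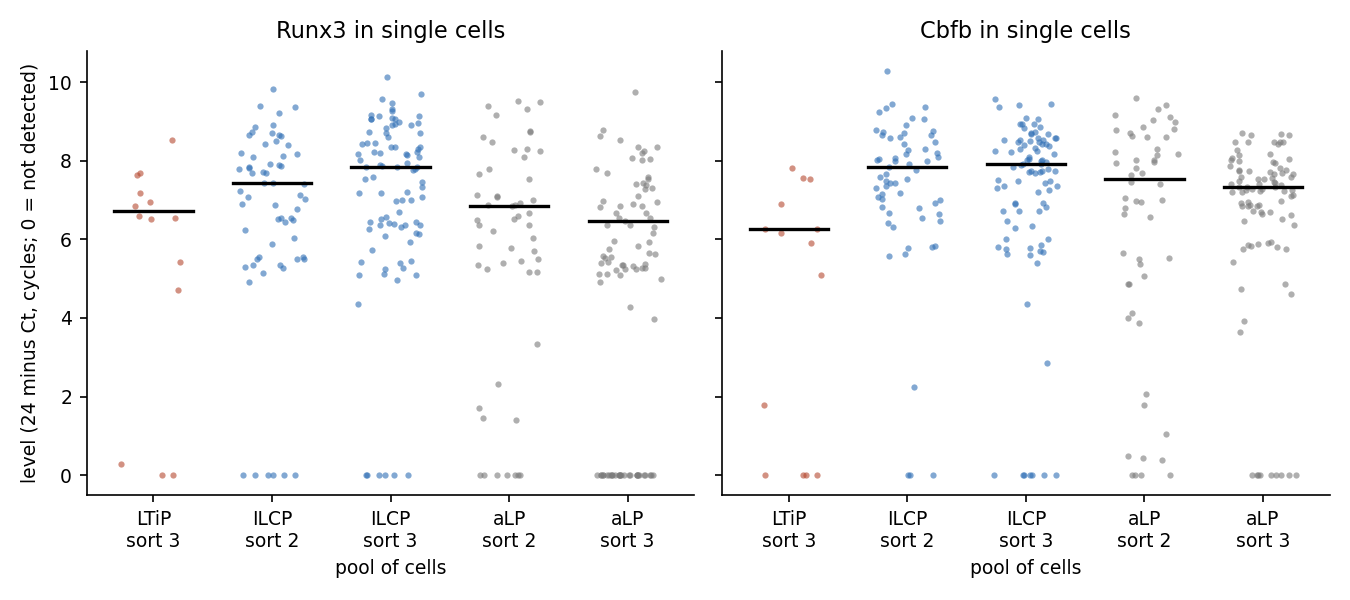
Level of Runx3 (left) and Cbfb (right) in each cell, as 24 minus the Ct in cycles, by pool. Each point is 1 cell, cells at 0 were not detected, and the black line is the median of the detected cells, which for Cbfb is 6.27 in LTiP and between 7.33 and 7.92 in the other pools.

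The comparison of ILCP with aLP set precursors with PLZF against those with neither PLZF nor CXCR5. Runx3 was higher in ILCP in both sorts, by share and by level, and the size differed between the sorts. By level over all cells of a pool, 58 of the 91 assays tested were higher in ILCP in both sorts. The Runx3 level was 6.58 and 7.05 cycles in ILCP of sorts 2 and 3, against 5.72 and 4.46 in aLP. The pools did not overlap, which also held for Hprt (7.85 and 7.67 cycles in ILCP, 7.13 and 6.45 in aLP). The mean difference of Runx3 was 1.72 cycles, with 0.85 in sort 2 and 2.59 in sort 3. Cells without a signal count as 0 in this level, so the difference is not a fold. By share, ILCP exceeded aLP by 3.3 points in sort 2 and 24.9 points in sort 3, so the mean of 14.1 points rested largely on sort 3.

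Cell names also carry a running number, split here into ranges of 96, and the order was the same in each range of sort 3. Among cells numbered 1 to 96, Runx3 was detected in 100% of 19 ILCP cells and 62.5% of 24 aLP cells. In the next range it was detected in 90.6% of 32 ILCP and 77.1% of 35 aLP cells, and in the last in 92.3% of 39 ILCP and 63.6% of 33 aLP cells. In sort 2 the groups shared only the middle range, with 10 of 10 ILCP cells and 47 of 54 aLP cells detected. A further setting, added with the data in view, took cells with a housekeeping mean Ct between 13 and 15. There Runx3 was found in 92.1% of ILCP and 90.6% of aLP cells in sort 2, and in 92.3% of ILCP and 74.5% of aLP cells in sort 3.

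Cbfb differed less between ILCP and aLP. Its level over all cells was 7.28 and 7.03 cycles in ILCP of sorts 2 and 3, against 6.14 and 6.45 in aLP. The pools did not overlap, as was also the case for Hprt, and the mean difference was 0.86 cycles, with 1.14 in sort 2 and 0.57 in sort 3. When each cell was scaled to its Actb, Gapdh and Hprt, the difference was 0.33, while that of Runx3 was 1.30. By share, the Cbfb difference was 2.57 points in sort 2 and 2.005 in sort 3, and it turned to -0.10 in the cells with a housekeeping mean between 13 and 15. In cells with at least 20 detected assays it was -0.65 points. Relative to the housekeeping mean, the median Cbfb Ct of detected cells came 2.34 cycles later in ILCP and 2.77 later in aLP in sort 2, but 1.96 later in ILCP and 1.84 later in aLP in sort 3. The order of the groups on that scale was therefore opposite in the 2 sorts.

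Across the panel, limma (lmFit and eBayes on the 4 pool means, Benjamini-Hochberg adjustment over 91 assays) called 5 assays higher in ILCP (5.49%) and 1 lower (1.1%), 6.59% in all, and the median difference over all assays tested was 0.54 cycles. The differences of Runx3 and Cbfb ranked 12 and 35 of 91 from the highest. With the sort as a block, 2 assays passed, the gate gene Zbtb16 and Rora. No call is given for Runx3 or Cbfb, because they were chosen with these levels known.

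Genes that work with the complex were followed in the same fit. Of the Groucho/TLE co-repressor genes, 4 of the 5 on the panel were tested and 0 called by limma, against 6.59% of all assays tested. Their median difference was 0.22 cycles, against 0.54 over all assays. Tle1 was found in 22 of 62 and 23 of 90 ILCP cells, against 38 of 54 and 65 of 92 aLP cells, with a difference of -2.32 ± 0.42 cycles (SE moderated by limma; adjusted p = 0.0685). Tle3 was found in 62 of 62 and 87 of 90 ILCP cells, against 54 of 54 and 85 of 92 aLP cells, with a difference of 1.16 ± 0.45 (limma, adjusted p = 0.191). Tle4 had a difference of 0.20 ± 0.38 and Tle2 of 0.24 ± 0.22. The co-repressor genes thus had differences of both signs.

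Of 10 transcription factors that act with or against Runx3 in lymphocytes, 3 were called higher in ILCP and 0 lower, and the median difference was 1.24 cycles. Over all 91 assays tested, 5 were called higher and 1 lower, with a median difference of 0.54 cycles. The called ones were Ets1, which binds DNA together with Runx proteins at T cell enhancers, Tcf7, the gene of the early T cell and ILC factor TCF-1, and the gate gene Zbtb16. Ets1 differed by 3.60 ± 0.38 (limma, adjusted p = 0.0138). Ets1 and Tcf7 each had an adjusted p = 0.0611 in limma once the sort was blocked, which left Zbtb16 as the 1 call of this list. ILCP and aLP were sorted with and without PLZF, so the Zbtb16 call was fixed in advance by the gate. The list itself was chosen with earlier results of these data known. Tbx21, the gene of T-bet, which cooperates with Runx3 in type 1 lymphocytes, was found in 20 of 62 and 14 of 90 ILCP cells, against 0 of 54 and 7 of 92 aLP cells. It differed by 1.27 ± 0.55 (limma, adjusted p = 0.208). Tox differed by 2.55 ± 1.34 (adjusted p = 0.295) and Gata3 by 1.21 ± 0.33 (adjusted p = 0.115). Zbtb7b, the gene of ThPOK, which opposes Runx3 in the choice between CD4 and CD8 T cells, had a difference of -0.15 ± 0.24.

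Among 7 genes bound or regulated by Runx complexes in lymphocytes, 0 were called by limma and the median difference was 0.26 cycles. Cd4, which Runx complexes silence in CD8 T cells, was found in 6 of 14 LTiP cells, 9 ILCP cells of sort 2 and 7 of sort 3, and 4 aLP cells of sort 2 and 5 of sort 3. Il2rb, whose product is shared by the receptors for interleukins 2 and 15, was found in 29 of 62 and 41 of 90 ILCP cells, against 12 of 54 and 20 of 92 aLP cells, and differed by 0.75 ± 0.25 (adjusted p = 0.152). Of the ILC1 and natural killer genes 0 of 5 tested were called, of the ILC2 genes 3 of 9 were called higher (Rora, Rxrg and Ets1), and of the ILC3 and LTi genes 0 of 8 were called. With the sort as a block, Rora alone of the ILC2 genes passed (limma, adjusted p = 0.0458). The median differences of these lists were 0.75, 1.21 and 0.65 cycles, against 0.54 over all assays tested. Of all assays tested, 5.49% were called higher and 1.1% lower, so 0 calls in lists this short lie near the panel's share. Ets1 is counted in both lists that hold calls.

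LTiP cells were set against ILCP and aLP cells of the same sort, with 1 pool each and therefore no test. The share of cells with Cbfb was 71.4% in LTiP against 92.2% in ILCP, a difference of -20.8 points, and against 90.2% in aLP, a difference of -18.8 points. Of the 4 housekeeping assays, Actb, Gapdh and Hprt were detected in every cell of these 3 pools. The share for Tbp was 21.4% in LTiP, 63.3% in ILCP and 51.1% in aLP. It was lower in LTiP by more than Cbfb, with differences of -41.9 and -29.7 points. Tbp signals lay near the limit, with a mean level of 2.70 cycles in detecting ILCP cells and 2.28 in detecting aLP cells. In sort 2, Tbp was detected in 30 of 62 ILCP cells and 0 of 54 aLP cells. Across the panel, 47.3% of the assays lost at least 10 points in LTiP against ILCP and 23.5% against aLP, and the median difference of share was -6.67 and 1.24 points. Runx3 differed by -7.62 points from ILCP and by 17.2 points from aLP.

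Cbfb was one of several widely detected genes that were found less often in LTiP. These genes were picked for a high share in ILCP or aLP, which left little room for a higher share in LTiP. Lower values in LTiP were thus favoured by the choice, and the counts below are a description only. Of the 19 assays detected in at least 80% of ILCP cells of sort 3, 12 were lower by at least 10 points in LTiP. Cbfb had the seventh lowest difference, behind Cd27, Sox4, Zbtb16, Tle4, Rbpj and Trp53. Of the 12 assays detected in at least 80% of aLP cells, 4 were lower by at least 10 points. Only Tsc22d3 (-46.7 points) and Rbpj (-33.1 points) stood below Cbfb there, and Notch2 (-14.3 points) followed it.

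**Figure D3:**
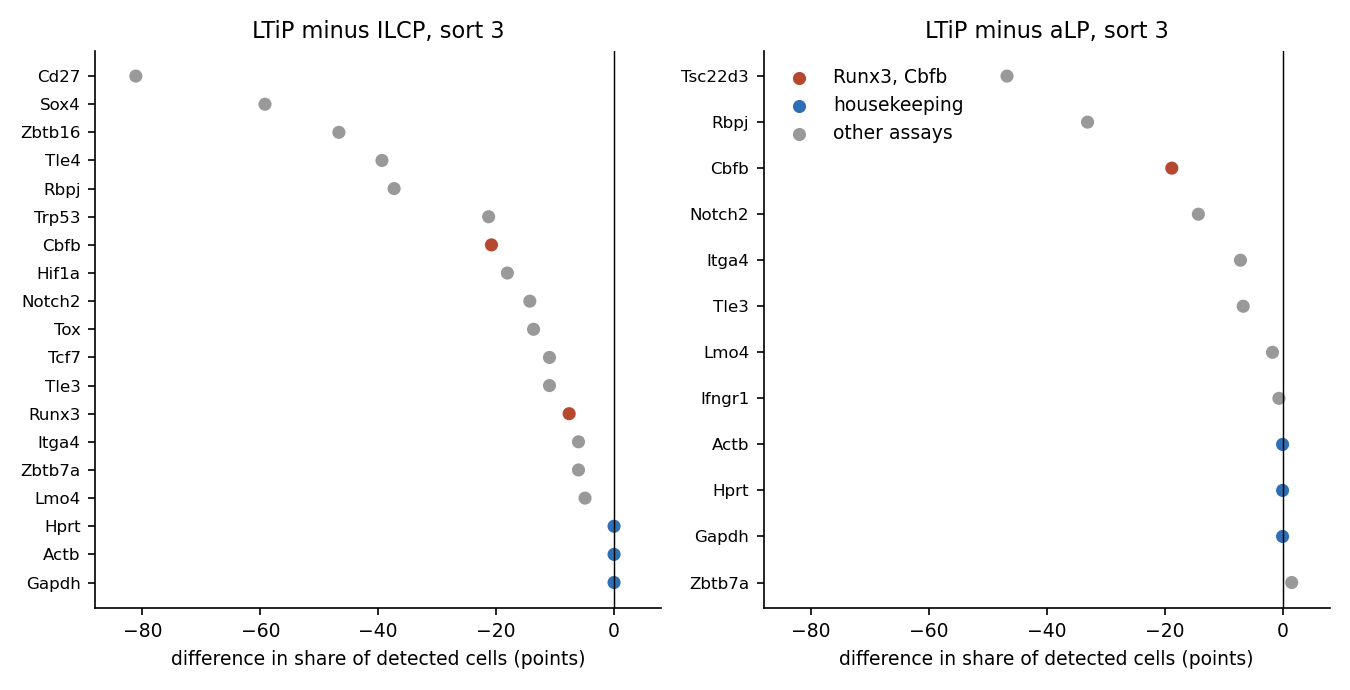
Difference in the share of detected cells, LTiP minus ILCP (left) and LTiP minus aLP (right), in percentage points, for assays detected in at least 80% of the ILCP or aLP cells of sort 3. Each point is 1 assay, and the choice by a high share in ILCP or aLP favours negative differences. Cbfb stands at -20.8 and -18.8 points and Actb, Gapdh and Hprt at 0, while Tbp, under 80% in both groups, is not drawn.

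In the cells that had it, the Cbfb level was also lower in LTiP, by 1.49 cycles than in ILCP and by 1.02 cycles than in aLP. Runx3 was lower in its detecting LTiP cells too, by 1.31 cycles than in ILCP and by 0.27 than in aLP. Actb was lower in LTiP than in these groups by 0.73 and 0.80 cycles, Gapdh by 1.10 and 0.35 and Hprt by 1.35 and 0.13. Over the assays with at least 5 detecting cells in each pool, 22% of 41 were lower by at least 1 cycle in LTiP than in ILCP and 11.4% of 35 than in aLP, with median differences of -0.55 and -0.09. With each cell scaled to its 3 housekeeping genes, the Cbfb differences were -0.22 against ILCP and -0.40 against aLP. The Cbfb Ct minus the housekeeping mean ran from 0.82 to 3.203 with a median of 2.41 in LTiP, from -0.26 to 6.56 with a median of 1.96 in ILCP, and from -0.33 to 4.79 with a median of 1.84 in aLP. All 10 LTiP values lay inside the range of both other groups.

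The size of the level difference depended on 1 LTiP cell. Its Cbfb Ct of 22.2 was the latest of the group, as were its Actb Ct of 17.6 and Hprt Ct of 22.8, while its Runx3 Ct was 17.1. Without it the Cbfb level differences were -1.01 cycles against ILCP and -0.54 against aLP. The shares depended on it too: at a detection limit of 22, which this cell misses, the Cbfb share differences were -27.9 points against ILCP and -25.9 against aLP.

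**Figure D4:**
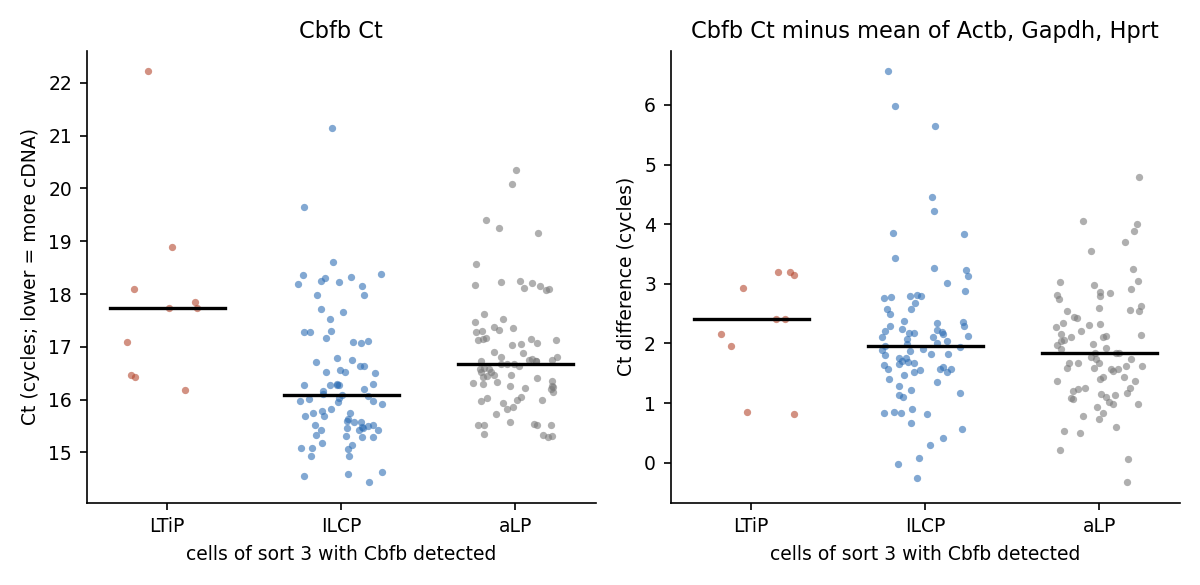
Cbfb in the detecting cells of sort 3, as Ct in cycles (left) and as Ct minus the cell's mean Ct of Actb, Gapdh and Hprt (right). Each point is 1 cell and the black lines are medians, which on the right are 2.41 in LTiP, 1.96 in ILCP and 1.84 in aLP.

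The 4 LTiP cells without Cbfb had a housekeeping mean Ct between 13.9 and 15.6, and 2 of them were earlier than the LTiP median. They gave 28 to 42 detected assays, and Runx3 was detected in all 4, in 1 of them at a Ct of 23.7 and in the others between 16.4 and 17.5. In ILCP the 3 and 7 cells without Cbfb in sorts 2 and 3 all had a housekeeping mean later than or equal to the pool's median. In aLP this held for all 4 such cells of sort 2 and 7 of 9 of sort 3. Among the cells of sort 3 within the LTiP range of housekeeping Ct, Cbfb was detected in 71.4% of 14 LTiP cells, 88.3% of 60 ILCP cells and 89.5% of 86 aLP cells. Among cells numbered 1 to 96, which held all LTiP cells, it was detected in 89.5% of 19 ILCP cells and 95.8% of 24 aLP cells.

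Most cells held both partners. Runx3 and Cbfb were detected together in 8 of 14 LTiP cells (57.1%), in 53 of 62 and 78 of 90 ILCP cells (85.5% and 86.7%) and in 44 of 54 and 59 of 92 aLP cells (81.5% and 64.1%). The products of the separate shares were 61.2% in LTiP, 85.95% and 86.1% in ILCP and 80.6% and 61.8% in aLP, within 5 points of the shares of cells with both. Cells with Cbfb alone were most numerous in aLP of sort 3 (24 of 92), and 4 of 14 LTiP cells had Runx3 alone. Neither gene was detected in 0 LTiP, 1 ILCP and 6 aLP cells.

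The levels of both genes were only weakly related from cell to cell. Spearman's rho over all cells of a pool was -0.30 in LTiP (14 cells), 0.13 and -0.04 in ILCP (62 and 90 cells) and 0.50 and 0.17 in aLP (54 and 92 cells). The cells of a pool share reverse transcription and differ in their amount of cDNA, and these values are a description. Pearson's r was -0.08, 0.01, 0.02, 0.57 and 0.18 in the same pools. The aLP pool of sort 2 stood apart. With its 46 cells of at least 20 detected assays, rho was 0.30 and r 0.24. In cells with both genes, after subtraction of the housekeeping mean, rho was -0.55 in LTiP (8 cells), -0.07 in both ILCP pools and -0.08 and 0.12 in aLP.

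Each gene had closer companions on the panel than its partner. Likeness was measured by the correlation over cells of a pool between rank residuals, after the number of detected assays of the cell had been taken out, averaged over the 4 ILCP and aLP pools. The candidates were the 40 other assays with a signal in 20% or more of the cells in every one of these pools. Cbfb ranked 23 of 40 for Runx3, with a mean of 0.07, and the sign differed between pools.

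Runx3 was most like Tox, an HMG-box factor needed for ILC development, with a mean of 0.44 and pool values of 0.59 and 0.57 in ILCP and 0.24 and 0.35 in aLP. The Groucho co-repressor gene Tle3 followed with 0.37 (0.39 and 0.50 in ILCP, 0.25 and 0.36 in aLP). The anti-apoptotic gene Bcl2 had 0.28, Actb 0.27 and the α4 integrin gene Itga4 0.25. With the housekeeping mean taken out in place of the number of assays, Tox had a mean of 0.49 (0.30 to 0.58 over pools) and Tle3 0.38 (0.14 to 0.51). In the 14 LTiP cells, which the ranking did not use, rho between Runx3 and Tox was 0.65 and between Runx3 and Tle3 0.28. The lowest in the ranking were Il7r (-0.17) and Ets1 (-0.22), and with the housekeeping mean taken out these were -0.006 and 0.012.

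Over the pools, Tox was found in 11 of 14 LTiP cells, 62 of 62 ILCP cells of sort 2 and 83 of 90 of sort 3, and 50 of 54 aLP cells of sort 2 and 52 of 92 of sort 3. Like Runx3, it had its lowest share in aLP of sort 3. That pool also had the fewest detected assays per cell (median 28), and other assays, among them Bcl2 and Hif1a, were lowest there too. The low share is thus not particular to Runx3 and Tox.

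Cbfb was most like the housekeeping genes Hprt (0.57), Actb (0.45) and Gapdh (0.44), followed by Trp53, the gene of the tumour suppressor p53 (0.43), and Zbtb7a, a BTB zinc finger gene (0.37). The value for Hprt was 0.55 in ILCP of sort 2, 0.58 in ILCP of sort 3, 0.74 in aLP of sort 2 and 0.41 in aLP of sort 3. With the housekeeping mean taken out, Trp53 had a mean of 0.25 and Zbtb7a 0.24. The lowest were again Il7r (-0.21) and Ets1 (-0.32), and with the housekeeping mean taken out these were -0.05 and -0.04.

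**Figure D5:**
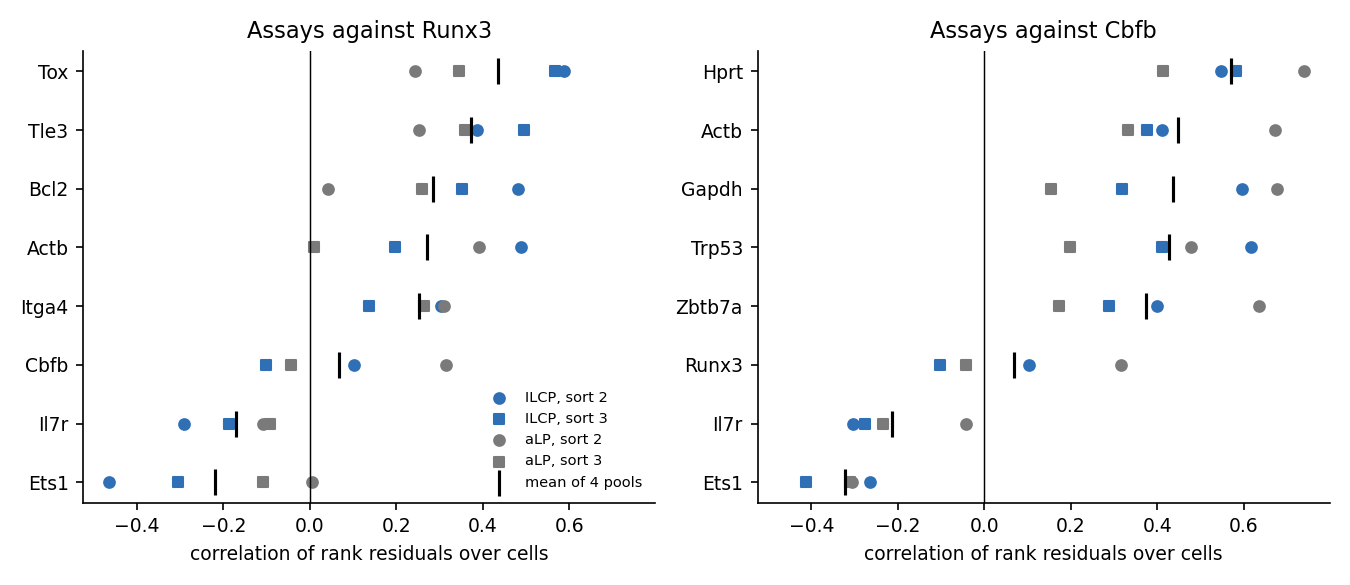
Correlation over the cells of a pool between rank residuals (number of detected assays taken out) of Runx3 (left) or Cbfb (right) and other assays: the 5 highest, the partner and the 2 lowest. Symbols are the 4 ILCP and aLP pools and the black bar is their mean, which is highest for Tox (0.44) with Runx3 and for Hprt (0.57) with Cbfb.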

How the data were processed

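The table holds raw Ct values that the authors deposited without normalization, per the file headers. Per the labels' protocols, cDNA of single cells was preamplified for 22 cycles and read on a Biomark HD system. No source used here states the rule behind a missing Ct. Groups came from the labels. That the number 2 or 3 marks the sort is a reading of the cell names, since no label defines it. Cells were kept with at least 1 of 4 housekeeping assays (Actb, Gapdh, Hprt, Tbp) and 5 detected assays. Assays with a signal in 5% or more of the cells of any ILCP or aLP pool were fitted with limma 3.58.1 in R 4.3.3. Its p-values rest on 2 pools a group, which may differ in technical ways. Same-numbered ILCP and aLP pools had deviations with a correlation of -0.047, so the sort was no block in the main fit. Intervals are exact Clopper-Pearson. The lowest Hprt Ct, 2.51 in 1 ILCP cell of sort 3, was kept (the next was 13.2). Of 100 assay names, 98 matched a mouse gene table of GRCm38.p6 by symbol and 1 by synonym. Promoter windows are RefSeq's. Members and lists were chosen with earlier results of these data known. Named companions were the 5 highest and 2 lowest by likeness, and list genes the called ones and up to 4 others. Detection limits, cell filters, scaling, number ranges and pools were varied. The fits include 2 assays whose values are not reported here. The limma script was tested on simulated data. Python 3.11.15 with pandas 2.3.3, scipy 1.17.1 and matplotlib 3.10.9 was used.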

Additional observations from a re-analysis of the deposited data

How the results depend on the processing

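The lower Cbfb share in LTiP kept its direction under all 9 alternatives. The difference ran from -27.9 to -16.9 points against ILCP and from -25.9 to -18.1 against aLP. The direction was close to fixed in advance, because the 4 LTiP cells without Cbfb gave no Ct. Of these alternatives, only the limit of 22 changed the LTiP share. The lower Cbfb level of detecting LTiP cells kept its direction but shrank to -0.22 and -0.40 cycles against ILCP and aLP with housekeeping scaling, and to -0.16 and -0.30 with that scaling and, in addition, the LTiP cell of latest Hprt and any Hprt Ct below 10 left out. Without that cell and unscaled, it was -1.01 and -0.54. Among cells numbered 1 to 96 it was -2.05 against ILCP. LTiP had 14 cells of 1 pool, whose counting interval for Cbfb, 41.9% to 91.6%, limits both comparisons.

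The ILCP minus aLP difference of the Runx3 share was 3.3 to 24.9 points in single sorts. Its level difference was 3.97 cycles with no detection limit. For the Cbfb share the difference was 5.31 points at a limit of 22, 2.77 at 26, at 28 and with none, 3.1 with no cell filter and 6.06 in cells numbered 97 or higher. It reversed to -0.65 in cells with at least 20 assays and to -0.10 in cells matched on housekeeping Ct. The Cbfb level difference was 1.38 with no limit, 0.32 in cells with at least 20 assays, 0.33 with housekeeping scaling and 0.30 in matched cells. The mean Runx3 and Cbfb correlation, 0.19, reversed to -0.086 with housekeeping scaling. The matched cells, the range from 97 and the removal of 1 LTiP cell were alternatives chosen after seeing the data.

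The count of called assays, 6, was 12, 16 and 17 at limits of 26, 28 and none, 11 with a 20% assay filter, 13 on shares, 2 with the replicate block and 0 on detected cells only (limma, 10 of 55 at an unadjusted p under 0.05). Leaving out a pool gave 0 to 20, with 0 without either ILCP pool (limma, unadjusted p under 0.05 for 19 and 23 assays). The 20 calls came with aLP of sort 2 left out. The cause of these changes was not tested. Runx3 and Cbfb were given no call with or without the block.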
